A study of Rattus norvegicus with 12 samples.

Results

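The genes described here are 36 genes of mitochondrial fuel handling: the enzymes of the TCA cycle, the pyruvate dehydrogenase complex (PDC) with its kinases and phosphatases, pyruvate entry and carboxylation, the aspartate and glutamate enzymes, and the carriers that shuttle substrates across the inner mitochondrial membrane. They were chosen by name, and 35 of the 36 were found among the 28727 named genes of the count table. All 35 passed the filter on low counts. Idh3b is spelled Idh3B in the table and was matched ignoring case, and Ogdh was not analysed here.

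The libraries came from INS-1 832/13 cells, a clonal line from a rat insulinoma whose insulin secretion responds to glucose. Every culture carried an adenovirus. The control virus expressed GFP, and the other expressed mCherry-tagged mouse ChREBPβ, the shorter product of Mlxipl, a gene for a transcription factor that responds to glucose. The transduced cells were kept for 48 h in 2 mM or in 11 mM glucose, with 3 libraries (replicates a, b and c) in each of the 4 groups and 12 in all. ChREBPβ was thus given by transduction in a single line that already expresses its own Mlxipl, and cells without virus were not part of the comparison.

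Pyruvate made by glycolysis enters mitochondria through the mitochondrial pyruvate carrier. PDC then converts it to acetyl-CoA, which is oxidised in the TCA cycle, while pyruvate carboxylase converts it to oxaloacetate and so refills the cycle. β-cells are known for sending much pyruvate through both routes, for low lactate dehydrogenase, and for shuttles that carry reducing equivalents into mitochondria and export citrate, malate and isocitrate to the cytosol, where they are linked to insulin secretion. PDC is switched off by phosphorylation by the pyruvate dehydrogenase kinases and switched on again by the phosphatases.

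Libraries held 25754488 to 60531215 counts on named genes, of which the members took 118276 to 329292. The libraries labelled ChREBPβ were deeper than those labelled GFP, except for replicate a at 2 mM with 28595982 counts. Levels below are CPM, the count of a gene scaled to a fixed library size, corrected with TMM factors. They compare a gene between libraries but not 1 gene with another, since transcript lengths were not used. The summed level of 10 β-cell markers was 16250 ± 931 CPM with GFP at 2 mM, 12340 ± 558 with GFP at 11 mM, 6595 ± 65.9 with ChREBPβ at 2 mM and 5729 ± 191 with ChREBPβ at 11 mM (SD, n = 3). Of these 10 markers, 8 fell and 1, Slc2a2, rose with ChREBPβ at 2 mM, 7 fell and 1 rose at 11 mM, and 8 fell with glucose in GFP cells. Of 10 markers of other cell types, 9 were in the table, with a summed level of 0.33 to 1.43 CPM in any library and with Ptprc and Prss2 at 0 in all 12. The only one tested, Cd68, was at most at 1.11 CPM and rose with ChREBPβ at 2 mM (1.04 on the log2 scale). The part of these marker changes and of depth in the changes of the members was not tested. The rat gene Mlxipl did not rise with the virus: it lay at 240.3 to 277 CPM with GFP and 198.7 to 211.8 with ChREBPβ in 2 mM glucose, and in 11 mM at 201.8 to 212.4 and 180.7 to 200.6. A separate entry named ChREBPb, whose definition is not given in the sources used here, had log2 fold changes with the virus of 0.21 ± 0.06 in 2 mM glucose (not called) and 0.37 ± 0.06 in 11 mM (called). The known ChREBP targets Txnip (4.12 ± 0.05 and 0.93 ± 0.05) and Pklr (1.68 ± 0.05 and 1.08 ± 0.05) rose in both. Since the virus carries a mouse sequence whose counting is not described, each group keeps the name its labels give it.

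A gene was called when its edgeR quasi-likelihood p, adjusted by Benjamini-Hochberg over all 14669 tested genes, was under 0.05 and its change was at least 1.2-fold. Changes are given as log2 fold changes ± the standard error (SE) of the fit. In bulk RNA a lower level can come from fewer cells of a type or from less RNA per cell, and these cannot be told apart here. The labels do not say whether the 3 libraries of a group were separate cultures, while the study describes its replicates as independent experiments. The p-values set a change against the spread between such libraries, estimated over all 4 groups.

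With ChREBPβ at 2 mM glucose, 21 of the 35 members were called, 18 higher and 3 lower (60% of the members). Over all tested genes in this comparison, 44.1% were called, 21.0% higher and 23.2% lower. The members that rose most encode PDC subunits, pyruvate carboxylase, a PDC kinase and the dicarboxylate carrier, and the member that fell most was Idh1. The median log2 fold change of the members was 0.27, beside -0.02 over all tested genes. At 11 mM glucose, 12 members were called, 9 higher and 3 lower (34.3%), where 33.4% of all tested genes were called, 14.3% higher and 19.1% lower. The share called at 11 mM was thus close to that over all genes, and the median of the members was 0.14, beside -0.02. All 9 members that rose at 11 mM also rose at 2 mM, where they made up 50% of the 18 rises, and the same 3 members, Idh1, Pdk3 and Mpc1, fell at both glucose levels. How often calls were shared between the glucose levels over all tested genes was not counted, so this overlap is not read as a trait of the members. With counts scaled to library totals only, the split was 12 higher and 3 lower at 2 mM and 6 higher and 4 lower at 11 mM. Under that scaling 45.1% of all tested genes were called at 2 mM and 35.7% at 11 mM, shares that the members did not exceed. Idh2, Idh3a, Idh3b, Fh, Pdha1 and Got2 were then no longer called at 2 mM, nor Dlst, Pdk1 and Pdp2 at 11 mM, where Suclg2 (-0.27) was called.

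Groups that did not overlap were common. The 3 libraries labelled ChREBPβ lay above all 3 GFP libraries for 23 members and below them for 3 at 2 mM, where 63.3% of all tested genes had groups that did not overlap. At 11 mM the counts were 21 above and 5 below, where 56.1% of all tested genes were separated. The summed level of the 35 members was 4482 ± 122 CPM in GFP and 5570 ± 73.6 in ChREBPβ cells in low glucose (SD, n = 3). In 11 mM glucose the sums were 4848 ± 99.3 and 5714 ± 129.

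**Figure D1:**
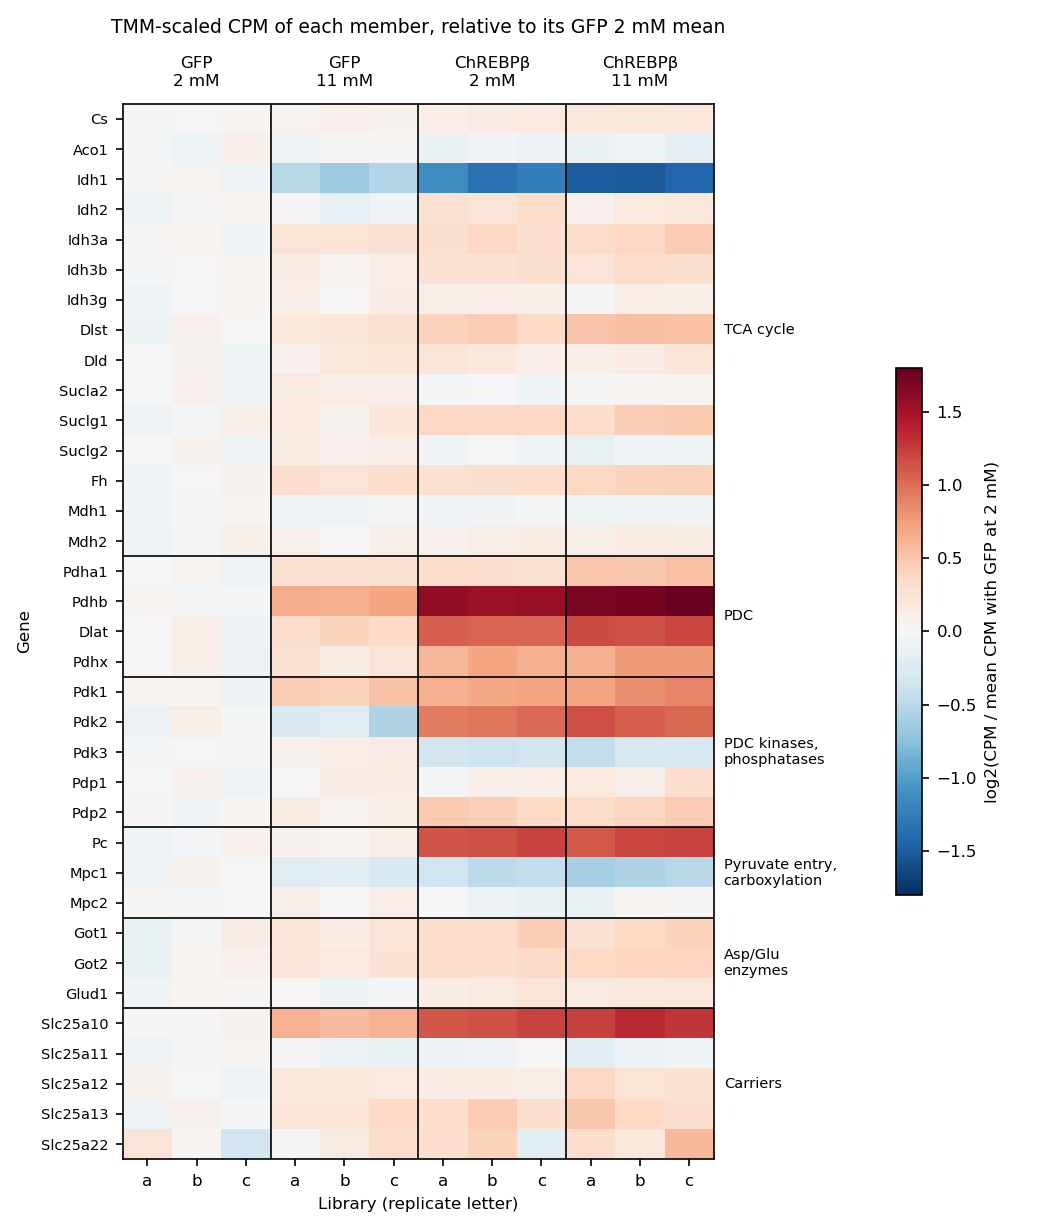
Level of each of the 35 members in each of the 12 libraries, as the log2 ratio of its TMM-scaled CPM to its mean in the GFP libraries at 2 mM; columns are libraries by group and replicate letter, rows are genes ordered by role, red is higher and blue lower. Pdhb, Dlat, Pc, Pdk2 and Slc25a10 are higher in all 6 libraries labelled ChREBPβ than in any GFP library, and Idh1 is lower.

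All 4 PDC subunit genes measured beside E3 rose with ChREBPβ at 2 mM and 3 of 4 at 11 mM, beside 21.0% and 14.3% of all tested genes. Pdhb encodes the β subunit of the E1 enzyme, which decarboxylates pyruvate. Its level was 94.25, 89.9 and 90.44 CPM with GFP and 275.9, 267.5 and 271.2 CPM with ChREBPβ at 2 mM. At 11 mM it was 146.0, 144.4 and 149.5 CPM with GFP and 298.3, 303.1 and 315.0 CPM with ChREBPβ. No library of one virus came near the other, and the lowest ChREBPβ library at 2 mM was above the highest GFP library at 11 mM. At 2 mM Pdhb rose by 1.57 ± 0.04, or 2.97-fold (edgeR adjusted p = 2.54e-17), and the rise at 11 mM was 1.06 ± 0.04, or 2.08-fold (edgeR adjusted p = 1.34e-14).

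Pdha1 encodes the partner of Pdhb in E1, the α subunit that carries the phosphorylation sites. It moved far less: its log2 fold change was 0.30 ± 0.04 at 2 mM, where it was called, and 0.23 ± 0.04 at 11 mM, under the minimum fold change. The group means were 99.63 ± 4.2 (GFP) and 122.7 ± 1.58 CPM (ChREBPβ) in 2 mM and 120.1 ± 0.668 and 141.2 ± 2.14 CPM in 11 mM glucose (SD, n = 3), and the groups did not overlap at either level. An entry with a near-identical name, Pdha1l1, had 214 to 770 counts per library and group means of 8.06 to 12.7 CPM, while Pdha2 had 0 counts in every library. Sequences were not compared, and whether reads were split between Pdha1 and Pdha1l1 was not tested.

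Dlat, the E2 enzyme that passes the acetyl group to coenzyme A, had levels of 35.79, 38.54 and 33.91 CPM with GFP and 76.12, 74.71 and 74.59 CPM with ChREBPβ at 2 mM. The levels at 11 mM were 44.95, 47.58 and 46.1 CPM with GFP and 81.79, 80.0 and 82.97 CPM with ChREBPβ. The groups were apart at both glucose levels, with a rise of 1.06 ± 0.05 in low glucose (edgeR adjusted p = 5.02e-13). In 11 mM glucose the rise of Dlat was 0.82 ± 0.05 (edgeR adjusted p = 1.95e-11). Pdhx, the E3-binding protein that anchors E3 to the E2 core, was at 28.59, 30.14 and 26.5 CPM with GFP and 43.18, 46.36 and 44.35 CPM with ChREBPβ at 2 mM. Its libraries at 11 mM were at 34.24, 31.54 and 33.46 CPM with GFP and 44.28, 48.13 and 48.41 CPM with ChREBPβ. It rose by 0.65 ± 0.06 and 0.50 ± 0.06 at 2 and 11 mM, with no overlap. Dld, the E3 enzyme that PDC shares with the 2-oxoglutarate dehydrogenase complex, was not called at either glucose level, with log2 fold changes of 0.17 ± 0.05 and -0.02 ± 0.05.

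Since a ratio of the counts of 2 genes within a library needs no scaling between libraries, subunits were also set against each other in this way. The pairs were chosen after their values were seen, so the ratios are given without a test, and a ratio shows only that 2 genes changed unequally. The count of Pdhb relative to that of Pdha1 was 0.92 ± 0.0434 with GFP at 2 mM, 1.22 ± 0.0163 with GFP at 11 mM, 2.21 ± 0.0398 with ChREBPβ at 2 mM and 2.16 ± 0.0447 with ChREBPβ at 11 mM (SD, n = 3). The ratio of Dlat to Pdha1 was 0.362 ± 0.00963 and 0.385 ± 0.0108 with GFP and 0.613 ± 0.00605 and 0.578 ± 0.00222 with ChREBPβ, at 2 and 11 mM in each case. That of Pdhx to Pdha1 moved less, from 0.285 ± 0.00649 and 0.276 ± 0.0117 with GFP to 0.364 ± 0.0138 and 0.333 ± 0.0168 with ChREBPβ. In all 3 ratios every ChREBPβ library lay above every GFP library, so the 4 subunit genes did not rise by the same factor.

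**Figure D2:**
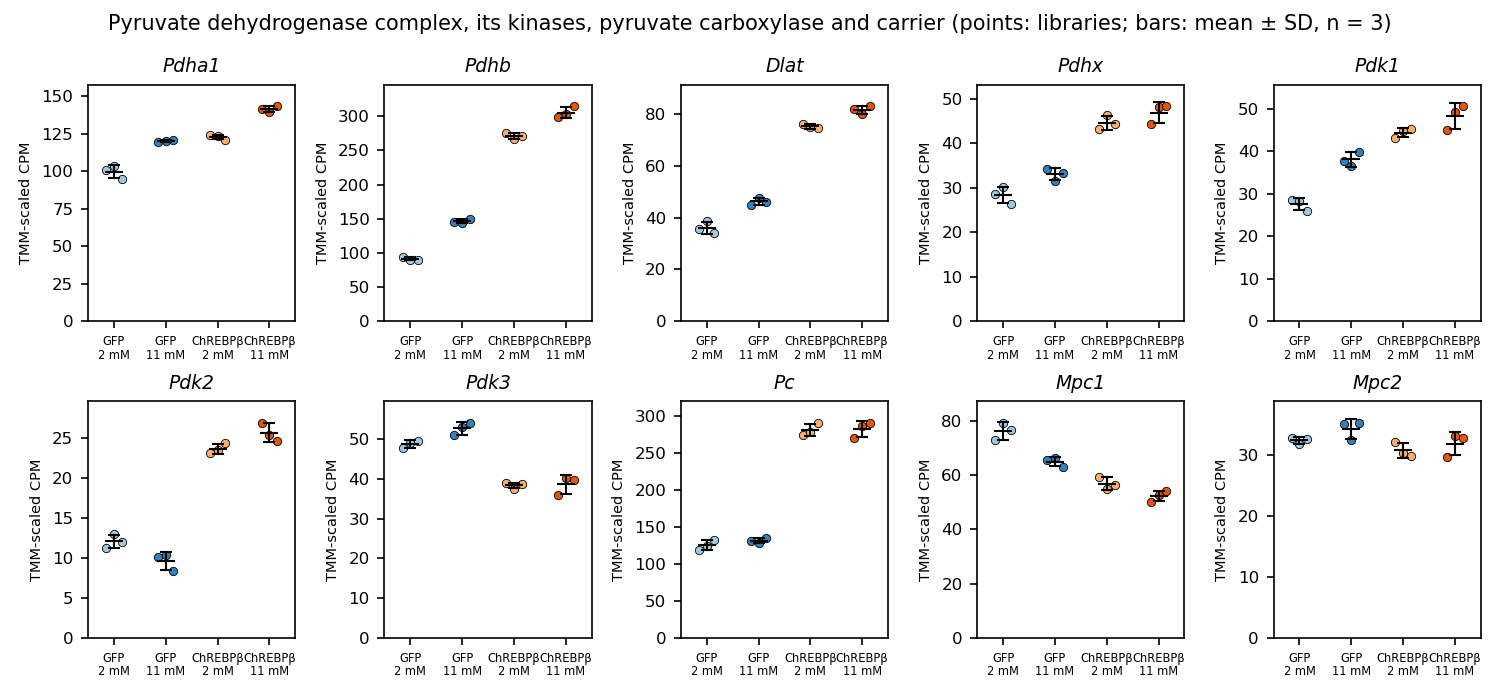
TMM-scaled CPM (vertical axes, from 0) of 10 genes of PDC, its kinases, pyruvate carboxylase and the pyruvate carrier in the 4 groups; points are libraries and bars are mean ± SD (n = 3). Pdhb, Dlat, Pdk2 and Pc are higher in all 6 ChREBPβ libraries than in any GFP library, while Pdk3 and Mpc1 lie lower with ChREBPβ.

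Promoters are shown because ChREBP is known to bind paired E-boxes of the letters CACGTG or close to it. Those of Pdhb and Pdk2 hold these letters and those of Pdha1 and Slc25a10 do not, and all of these members rose in 2 mM glucose. RefSeq sequences of the 250 bases before the start of the gene (GRCr8 build) were found for 31 of the 35 members analysed, and not for Idh3a, Pdp1, Pdp2 and Pc. The letters CACGTG, which read the same on both strands, stood in 2 of the 31 (6.45%), Pdhb and Pdk2, and in 5.59% of all 33469 promoters of the same length. The longer carbohydrate response element motif, searched on both strands by its consensus and overlapping such E-boxes, was found in 0 of the 31 and in 0.0598% of all promoters. The windows are Pdhb at chr15:19182539-19182788 (plus strand), Pdk2 at chr10:80483913-80484162 (minus strand), Pdha1 at chrX:38508908-38509157 (plus strand) and Slc25a10 at chr10:106264146-106264395 (plus strand). Capitals mark CACGTG, which begins 186 and 97 bases before the start of Pdhb and 143 bases before that of Pdk2.
Pdhb: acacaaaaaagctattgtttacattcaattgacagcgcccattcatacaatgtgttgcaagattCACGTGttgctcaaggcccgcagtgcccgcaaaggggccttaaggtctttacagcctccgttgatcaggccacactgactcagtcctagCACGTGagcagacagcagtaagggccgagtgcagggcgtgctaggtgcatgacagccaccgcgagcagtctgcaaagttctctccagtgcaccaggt
Pdk2: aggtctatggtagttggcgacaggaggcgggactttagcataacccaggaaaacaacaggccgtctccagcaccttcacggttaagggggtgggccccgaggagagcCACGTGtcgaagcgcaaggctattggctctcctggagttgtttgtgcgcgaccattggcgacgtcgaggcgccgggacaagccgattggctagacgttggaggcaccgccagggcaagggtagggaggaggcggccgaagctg
Pdha1: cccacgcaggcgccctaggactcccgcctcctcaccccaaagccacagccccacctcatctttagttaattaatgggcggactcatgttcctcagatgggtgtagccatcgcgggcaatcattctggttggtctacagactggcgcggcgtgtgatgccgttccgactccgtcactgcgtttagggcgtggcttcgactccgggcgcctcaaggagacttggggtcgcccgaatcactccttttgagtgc
Slc25a10: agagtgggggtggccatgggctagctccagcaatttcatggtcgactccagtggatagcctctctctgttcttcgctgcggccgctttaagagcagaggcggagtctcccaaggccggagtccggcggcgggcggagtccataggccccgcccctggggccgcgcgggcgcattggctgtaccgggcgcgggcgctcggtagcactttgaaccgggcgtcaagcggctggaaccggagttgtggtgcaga
Slc25a10 and Pdha1, which also rose in 2 mM glucose, held no such letters in this window, and a match is a description of the letters and not a binding site.

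The 3 PDC kinases moved in different directions. Pdk1 and Pdk2 rose with ChREBPβ at both glucose levels and Pdk3 fell at both. Pdk2 was at 11.24, 12.94 and 11.92 CPM with GFP and 23.02, 23.4 and 24.3 CPM with ChREBPβ at 2 mM. At 11 mM it was at 10.09, 10.31 and 8.29 CPM with GFP and 26.87, 25.33 and 24.57 CPM with ChREBPβ. The viruses were apart at both levels, and Pdk2 had the largest rise of any member at 11 mM: 1.42 ± 0.08 (edgeR adjusted p = 7.47e-12), a 2.69-fold rise, beside 0.97 ± 0.08 (edgeR adjusted p = 2.91e-09), a 1.96-fold rise, in low glucose.

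Pdk1 had levels of 28.62, 28.19 and 25.96 CPM with GFP and 43.07, 44.79 and 45.26 CPM with ChREBPβ at 2 mM. At 11 mM the levels were 37.62, 36.63 and 39.91 CPM with GFP and 44.95, 49.32 and 50.61 CPM with ChREBPβ. The groups did not overlap, and the rise was 0.69 ± 0.06 at 2 mM and 0.34 ± 0.06 at 11 mM. Pdk3 went from 48.82 ± 0.918 CPM in GFP to 38.39 ± 0.708 CPM in ChREBPβ cells kept in 2 mM glucose, and from 52.79 ± 1.62 to 38.68 ± 2.32 CPM in 11 mM (SD, n = 3), with changes of -0.35 ± 0.05 and -0.45 ± 0.05. Relative to Pdk3, the count of Pdk2 was 0.246 ± 0.0151 and 0.181 ± 0.0249 with GFP and 0.614 ± 0.0198 and 0.664 ± 0.0713 with ChREBPβ, at 2 and 11 mM. Pdk4, the kinase known for its rise in fasting, had 0 counts in all 12 libraries. Of the phosphatases that reverse the kinases, Pdp2 rose by 0.42 ± 0.07 at 2 mM and 0.30 ± 0.06 at 11 mM, and Pdp1 was not called, with 0.07 ± 0.07 and 0.11 ± 0.07.

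Pc, pyruvate carboxylase, was at 119.2, 123.8 and 132.6 CPM with GFP and 274.8, 278.1 and 290.3 CPM with ChREBPβ at 2 mM. At 11 mM the libraries were at 131.3, 128.4 and 134.6 CPM with GFP and 270.0, 286.9 and 291.1 CPM with ChREBPβ. All 6 ChREBPβ libraries lay above all 6 GFP libraries. The rise in 2 mM glucose was 1.17 ± 0.05, or 2.24-fold (edgeR adjusted p = 2.39e-14), and that in 11 mM was 1.1 ± 0.05, or 2.15-fold (edgeR adjusted p = 8.05e-14). The genes of the mitochondrial pyruvate carrier went the other way or did not change enough to be called. Mpc1 fell in 2 mM glucose, from 76.24 ± 3.2 CPM with GFP to 56.86 ± 2.34 with ChREBPβ (-0.43 ± 0.05), and in 11 mM, from 64.93 ± 1.8 to 52.24 ± 1.89 CPM (-0.31 ± 0.05), with no overlap. Mpc2, whose protein forms the carrier with that of Mpc1, had log2 fold changes of -0.08 ± 0.06 and -0.11 ± 0.06, with overlapping groups. The ratio of Mpc1 to Mpc2 counts was 2.35 ± 0.138 and 1.9 ± 0.134 with GFP and 1.85 ± 0.0352 and 1.64 ± 0.0498 with ChREBPβ, at 2 and 11 mM.

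**Figure D3:**
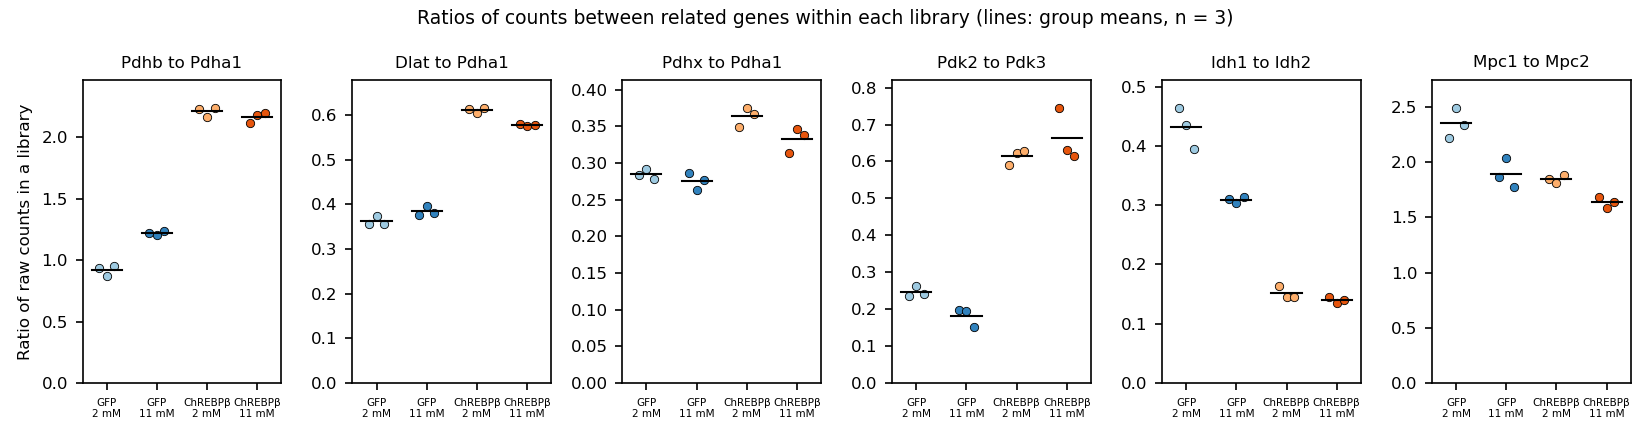
Ratio of the raw counts of 2 related genes in the same library (vertical axes, from 0) in the 4 groups; points are libraries and lines are group means (n = 3). The ratios of Pdhb and Dlat to Pdha1 and of Pdk2 to Pdk3 are higher in all 6 ChREBPβ libraries than in any GFP library, and that of Idh1 to Idh2 is lower.

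In the TCA cycle, 15 genes were measured, of which 6 rose and 1 fell with ChREBPβ at 2 mM and 1 rose and 1 fell at 11 mM. The share called was 46.7% at 2 mM, near the 44.1% of all tested genes, and 13.3% at 11 mM, below the 33.4% of all genes. The changes were small apart from Idh1, which encodes the cytosolic NADP-dependent isocitrate dehydrogenase and acts beside the cycle. Idh1 was at 98.73, 99.84 and 92.2 CPM with GFP and 44.61, 38.39 and 41.32 CPM with ChREBPβ at 2 mM. Its levels at 11 mM were 68.68, 61.8 and 67.27 CPM with GFP and 34.32, 34.12 and 36.02 CPM with ChREBPβ. The order of the groups was the same in all libraries, with no overlap between any neighbours: GFP at 2 mM, GFP at 11 mM, ChREBPβ at 2 mM and ChREBPβ at 11 mM, from high to low. ChREBPβ changed it by -1.23 ± 0.06 in low glucose (edgeR adjusted p = 4.38e-13) and by -0.92 ± 0.06 in 11 mM (edgeR adjusted p = 5.4e-11).

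Idh2, the mitochondrial NADP-dependent enzyme, rose at 2 mM from 225.0 ± 11.1 to 273.1 ± 10.2 CPM (0.28 ± 0.05), a call just over the minimum fold change that was lost without GFP replicate a (0.24) or ChREBPβ replicate c (0.25). The count of Idh1 relative to that of Idh2 was 0.432 ± 0.0352 and 0.309 ± 0.00538 with GFP and 0.152 ± 0.0104 and 0.14 ± 0.00524 with ChREBPβ, at 2 and 11 mM. Of the NAD-dependent isocitrate dehydrogenase of the cycle, the catalytic subunit gene Idh3a (0.32 ± 0.04) and Idh3b (0.27 ± 0.04) rose at 2 mM, while Idh3g was not called (0.11 ± 0.04). The call of Idh3b was lost without the same libraries as that of Idh2, at 0.26 each time.

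Dlst, the E2 enzyme of the 2-oxoglutarate dehydrogenase complex, rose at both glucose levels by 0.41 ± 0.05 and 0.30 ± 0.04, alone among these 15 genes in the fit used throughout. Suclg1, the α subunit of succinyl-CoA ligase, rose by 0.37 ± 0.05 at 2 mM and had a change of 0.26 ± 0.05 at 11 mM, a little short of 1.2-fold. Suclg1 was called at 11 mM with RLE factors (0.28), with DESeq2 (0.28) and in some fits that left out a library. With counts scaled to library totals only, Dlst was not called at 11 mM (0.22). The β subunit genes Sucla2 and Suclg2, which give the ligase its preference for ADP or GDP, were not called, with -0.04 ± 0.04 for both at 2 mM. Fh, fumarate hydratase, rose by 0.29 ± 0.04 at 2 mM and was not called at 11 mM (0.11 ± 0.04). Cs, citrate synthase, which opens the cycle, had changes of 0.15 ± 0.04 and 0.14 ± 0.04 that did not reach the minimum fold change, although its groups did not overlap. Aco1, the cytosolic aconitase, and the malate dehydrogenases Mdh1 (cytosolic) and Mdh2 (mitochondrial) were not called in any comparison.

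Among the aspartate and glutamate enzymes, Got1 (0.36 ± 0.06) and Got2 (0.32 ± 0.04), the cytosolic and mitochondrial aspartate aminotransferases of the malate-aspartate shuttle, rose with ChREBPβ at 2 mM, and neither was called at 11 mM (0.13 ± 0.06 and 0.16 ± 0.04). Glud1, glutamate dehydrogenase, was not called, with 0.17 ± 0.04 and 0.23 ± 0.04. All 3 of these genes had groups that did not overlap at both levels, where 63.3% of all tested genes at 2 mM and 56.1% at 11 mM were separated.

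Slc25a10, the mitochondrial dicarboxylate carrier that exchanges malate or succinate for phosphate, had the largest change of the 5 carriers. Its levels were 221.1, 223.3 and 236.7 CPM with GFP and 495.2, 503.7 and 526.7 CPM with ChREBPβ at 2 mM. At 11 mM they were 350.8, 335.6 and 349.8 CPM with GFP and 532.0, 577.1 and 554.2 CPM with ChREBPβ. Every ChREBPβ library lay above every GFP library, and the rise was 1.16 ± 0.04, or 2.24-fold, in 2 mM glucose (edgeR adjusted p = 1.01e-14). In 11 mM it was 0.68 ± 0.04, or 1.6-fold (edgeR adjusted p = 5.31e-11). Slc25a13, a carrier that exchanges aspartate for glutamate, rose at 2 mM (0.36 ± 0.08) and was not called at 11 mM (0.12 ± 0.07). Its paralog Slc25a12, the oxoglutarate carrier Slc25a11 and the glutamate carrier Slc25a22 were not called. Slc25a22 was the lowest member, with 40 to 134 counts per library, and its SE of 0.21 at 2 mM was far above that of the others, so only a large change could have been detected at this depth.

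**Figure D4:**
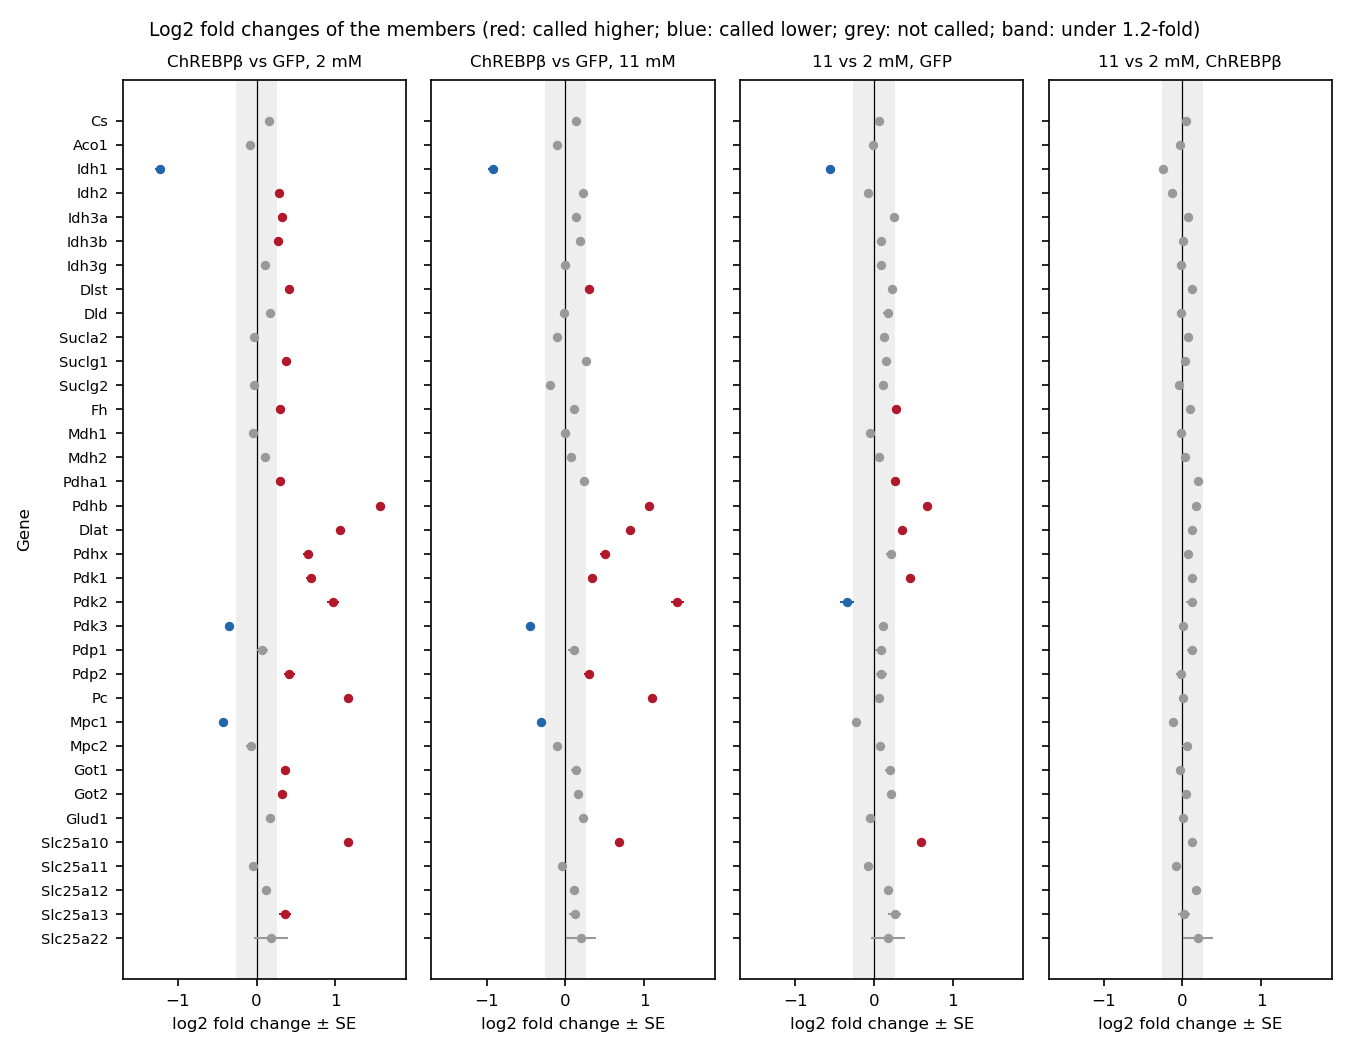
Log2 fold change of each of the 35 members in the 4 comparisons, with bars of ± 1 SE; red points were called higher, blue points lower and grey points were not called, and the grey band marks changes under 1.2-fold. At 2 mM 21 members were called between the viruses, at 11 mM 12, with glucose in GFP cells 8 and with glucose in ChREBPβ cells 0. Over all tested genes, 44.1%, 33.4%, 20.2% and 3.87% were called in these comparisons.

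In all, 14 members were not called in any of the 4 comparisons: Cs, Aco1, Idh3g, Dld, Sucla2, Suclg2, Mdh1, Mdh2, Pdp1, Mpc2, Glud1, Slc25a11, Slc25a12 and Slc25a22. Without Slc25a22, their log2 fold changes lay between -0.09 and 0.17 at 2 mM and between -0.19 and 0.23 at 11 mM, with SEs of at most 0.07. Of these 13, 6 at 2 mM and 3 at 11 mM had an edgeR adjusted p under 0.05 without reaching 1.2-fold.

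Raising glucose from 2 to 11 mM in GFP cells called 8 of the 35 members, 6 higher and 2 lower (22.9%), where 20.2% of all tested genes were called, 10.2% higher and 10.0% lower. This comparison shares the GFP libraries with those between viruses, so the values are only set side by side. Pdhb rose by 0.68 ± 0.04 and Slc25a10 by 0.61 ± 0.04, followed by Pdk1 (0.47 ± 0.06), Dlat (0.36 ± 0.05), Fh (0.28 ± 0.04) and Pdha1 (0.27 ± 0.04). Idh1 fell by 0.56 on the log2 scale (SE 0.06), and Pdk2 had a change of -0.34 ± 0.09, beside its rise of 0.97 with ChREBPβ at 2 mM. The call of Pdk2 was lost without GFP replicate c at 11 mM (-0.24), that of Fh without GFP replicate a at 2 mM (0.26) and that of Pdha1 without GFP replicate c at 2 mM (0.24). Without GFP replicate b at 2 mM, 12 members were called, beside 19.6% of all tested genes, with Idh3a, Dlst, Pdhx and Slc25a13 added. Slc25a13, at 0.26 ± 0.08 with all libraries, lay just under 1.2-fold, and it was also called without a filter and with a replicate block. The same held without GFP replicate a or b at 11 mM, ChREBPβ replicate b or c at 2 mM, or any ChREBPβ replicate at 11 mM. Pc was not called, at 0.07 ± 0.05 with overlapping groups, beside its rise of over 1 with ChREBPβ. Groups did not overlap for 20 members above and 3 below, where 42.0% of all tested genes were separated.

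In the libraries labelled ChREBPβ, glucose called 0 of the 35 members by the edgeR quasi-likelihood test, and also 0 by DESeq2 and by the edgeR likelihood ratio test. Over all tested genes 3.87% were called, 0.988% higher and 2.88% lower. At an unadjusted p under 0.05 there were 11 members, a count whose share over all tested genes was not computed. At an adjusted p under 0.05 without a minimum fold change there were 4, where 7.5% of all tested genes were called. These 4 were all under 1.2-fold: Pdha1 (0.20 ± 0.04), Pdhb (0.17 ± 0.04), Slc25a12 (0.17 ± 0.05) and Idh1 (-0.25 ± 0.06). Idh1 was called without ChREBPβ replicate b at 2 mM (-0.30) or replicate c at 11 mM (-0.27). The change in the members lay between -0.25 and 0.20, with 11 above, 3 below and 21 overlapping, where 28.9% of all tested genes had groups that did not overlap.

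Whether the effect of ChREBPβ differed between the glucose levels was tested as the interaction, the log2 fold change at 11 mM minus that at 2 mM. It called 5 members, 2 positive and 3 negative (14.3%), beside 6.31% of all tested genes, 1.56% positive and 4.74% negative. The effect was smaller at 11 mM for 3 of them, with differences for Pdhb of -0.51 ± 0.05 (edgeR adjusted p = 3.83e-06), for Slc25a10 of -0.48 ± 0.06 (edgeR adjusted p = 2.6e-05) and for Pdk1 of -0.35 ± 0.08 (edgeR adjusted p = 0.0106). For Pdk2 the effect was larger at 11 mM by 0.46 ± 0.11 (edgeR adjusted p = 0.0147), a call lost without GFP replicate c at 11 mM (0.36, edgeR adjusted p = 0.0538). For Idh1 the fall was smaller at 11 mM, a difference of 0.31 ± 0.08 (edgeR adjusted p = 0.0219). This call was lost without any 1 of 4 libraries: GFP replicate b at 2 mM (0.29, edgeR adjusted p = 0.0531), ChREBPβ replicate b at 2 mM (0.25, adjusted p = 0.0844), replicate c at 2 mM (0.31, adjusted p = 0.0533) or replicate c at 11 mM (0.28, adjusted p = 0.0571). For Pc the difference was -0.06 ± 0.06 and not called.

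Genes next to these in the pathway were read from a separate list of 26, of which 22 passed the filter. With ChREBPβ 13 were called at 2 mM, 7 higher and 6 lower (59.1%, beside 44.1% of all tested genes), and 12 at 11 mM, 6 higher and 6 lower (54.5%, beside 33.4%). With glucose 9 were called in GFP cells, 5 higher and 4 lower (40.9%, beside 20.2%), and 4 in ChREBPβ cells, 2 each way (18.2%, beside 3.87%). The genes that rose most lie on routes that join the cytosol to pyruvate and the shuttles. Gpd1, the cytosolic glycerol 3-phosphate dehydrogenase of the glycerol phosphate shuttle, rose in 2 mM glucose from 312.6 ± 15.7 CPM with GFP to 1686 ± 69.2 with ChREBPβ (2.43 ± 0.06). In 11 mM it rose from 603.3 ± 41.7 to 2222 ± 141 CPM (1.88 ± 0.06). Its mitochondrial partner Gpd2 was not called at either level, with -0.22 ± 0.05 and -0.13 ± 0.05. The ratio of Gpd1 to Gpd2 counts was 2.82 ± 0.19 and 5.02 ± 0.462 with GFP and 17.7 ± 1.25 and 20.3 ± 1.79 with ChREBPβ, at 2 and 11 mM.

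Slc16a1, a plasma membrane transporter of lactate and pyruvate known to be kept low in β-cells, was at 4.556, 5.772 and 5.16 CPM with GFP and 30.5, 30.62 and 30.28 CPM with ChREBPβ at 2 mM. At 11 mM it was at 15.24, 14.11 and 14.15 CPM with GFP and 36.11, 38.36 and 38.76 CPM with ChREBPβ. The groups were all apart, and the rise was 2.55 ± 0.08 at 2 mM (5.86-fold) and 1.38 ± 0.06 at 11 mM (2.6-fold). Ldha, lactate dehydrogenase A, had at most 3 counts in any library and was not tested. Ldhb, lactate dehydrogenase B, was at 44.61 to 68.5 CPM, rose with ChREBPβ at 2 mM (0.35 ± 0.06) and with glucose in GFP cells (0.43 ± 0.06), and was not called at 11 mM (0.09 ± 0.06). Acly, which splits exported citrate into acetyl-CoA and oxaloacetate, rose by 1.14 ± 0.04 in 2 mM glucose, from 2298 ± 65.5 CPM with GFP to 5084 ± 52.3 with ChREBPβ, and by 1.00 ± 0.04 in 11 mM, from 2727 ± 53 to 5469 ± 95.7 CPM. Me3, the mitochondrial NADP-dependent malic enzyme, rose by 1.2 ± 0.09 and 0.65 ± 0.09. Glucose raised Slc16a1 by 1.48 ± 0.08 in GFP cells and 0.31 ± 0.06 in ChREBPβ cells, and Gpd1 by 0.95 ± 0.06 and 0.40 ± 0.05. The interaction called 3 of the 22 tested genes of the list, all negative (13.6%, beside 6.31% of all tested genes, 1.56% positive and 4.74% negative). The effect of ChREBPβ was smaller at 11 mM for Slc16a1 (-1.17 ± 0.10), Gpd1 (-0.55 ± 0.08) and Me3 (-0.55 ± 0.13).

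**Figure D5:**
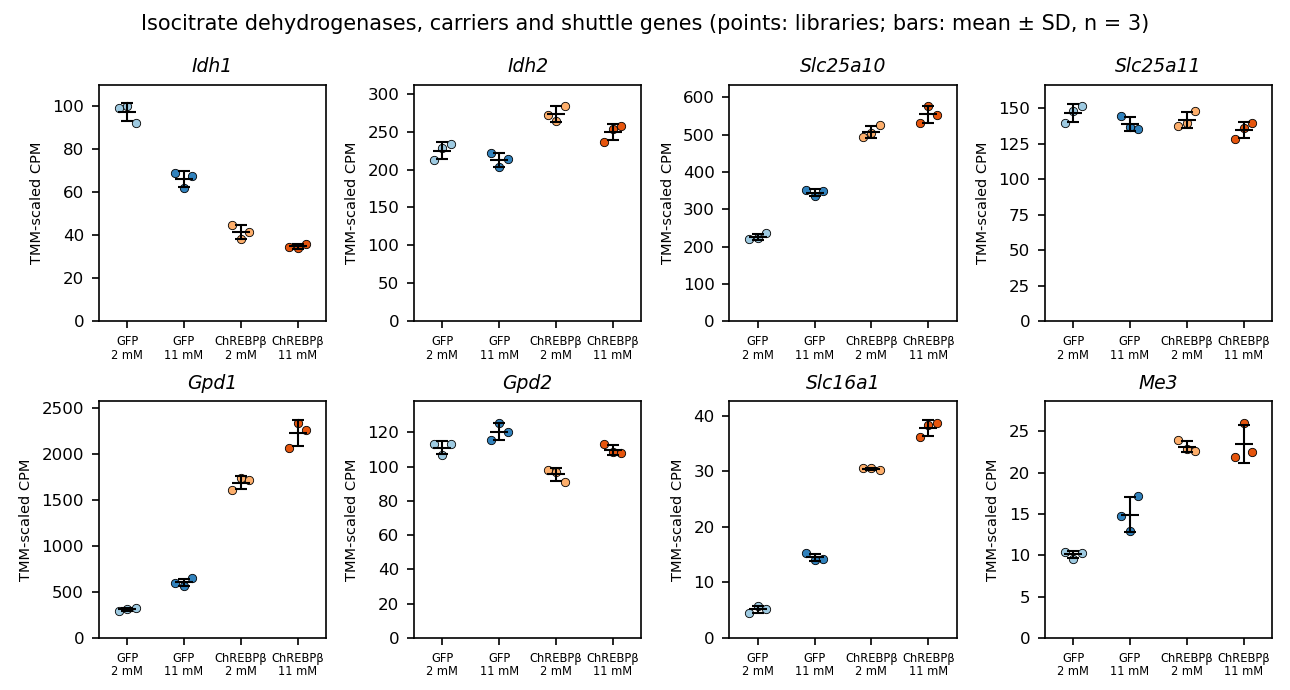
TMM-scaled CPM (vertical axes, from 0) of 8 genes of isocitrate metabolism, carriers and shuttles in the 4 groups; points are libraries and bars are mean ± SD (n = 3). Gpd1, Slc16a1, Slc25a10 and Me3 are higher in all 6 ChREBPβ libraries than in any GFP library, Idh1 is lower, and Gpd2 and Slc25a11 were not called.

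Among the genes of this list that fell, Ogdhl, an E1 paralog of the 2-oxoglutarate dehydrogenase complex, changed by -0.77 ± 0.05 at both glucose levels, and glucose changed it by -0.60 with either virus (SE 0.05 in each). Its group means in 2 and 11 mM glucose were 104.5 ± 4.87 and 69.06 ± 2.13 CPM for GFP and 61.36 ± 3.7 and 40.39 ± 0.892 CPM for ChREBPβ, and it was thus lowered by glucose in ChREBPβ cells where no member was called. Dhtkd1, an E1 enzyme of lysine breakdown, fell by 0.89 and 1.03 on the log2 scale with ChREBPβ, at levels of at most 3.21 CPM, with SEs of 0.31 and 0.36 and overlapping groups at 2 mM, and by 1.2 on the log2 scale with glucose in GFP cells (SE 0.32) and 1.34 in ChREBPβ cells (SE 0.34). Gpt, a glutamate and pyruvate aminotransferase, fell by 0.74 on the log2 scale at 2 mM (SE 0.13), while Gpt2, its mitochondrial relative, rose by 0.61 ± 0.11. Gls2, a glutaminase, fell by 0.62 on the log2 scale at 11 mM (SE 0.18). Of the succinate dehydrogenase genes, which were on this list, Sdhd rose by 0.45 ± 0.05 at 2 mM and 0.32 ± 0.05 at 11 mM, and Sdha, Sdhb and Sdhc were not called at either level.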

How the data were processed

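RNA of INS-1 832/13 cells was amplified (NuGEN Ovation RNA-Seq System V2) and sequenced in paired-end reads by the authors, who deposited raw read counts per gene without normalization, beside 4 columns of group means that were not used. The submitters' processing notes name the Rnor_6.0 build and edgeR. The aligner and the counting program are not given in the sources used here. Samples were grouped by their labels.

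A row without a gene name (0.0043% to 0.006% of counts) was left out. Counts were analysed in R 4.3.3 with edgeR 4.0.16 (and limma 3.58.1, on which it builds), and DESeq2 1.42.0 as an alternative, with Python 3.11.15 for promoters and plots. filterByExpr by group kept 14669 genes. All 12 libraries entered 1 quasi-likelihood fit with TMM factors and the group as factor. The SE is the log2 fold change divided by the square root of F. The edgeR and DESeq2 steps were tested on simulated data. Amplified reads are not independent molecules, so limits from low counts cover counting error only. No replicates of a group agreed within sampling noise.

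The members, lists and tests were chosen with earlier results of these data known. Values in every library are given for members called with at least 1.5-fold in any of 4 comparisons or called in the interaction, and for other pathway genes only those called with at least 1.5-fold were to be named. Txnip, Pklr, Gpd2, Ldha, Ldhb, Pdk4 and the succinate dehydrogenase genes were named after their values were seen. Alternatives were other scalings, tests, filters and fold limits, a replicate block, fits of 2 groups, and leaving out each library. The comparisons that change virus and glucose together were not analysed here.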

Additional observations from a re-analysis of the deposited data

Results flagged for a closer look

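For 5 members (14.3%, beside 6.31% of all tested genes) the effect of ChREBPβ differed between the glucose levels by the interaction test of edgeR. The difference, at 11 mM minus at 2 mM on the log2 scale, was -0.51 for Pdhb, -0.48 for Slc25a10, -0.35 for Pdk1, 0.46 for Pdk2 and 0.31 for Idh1. For Pdhb, ChREBPβ minus GFP was 1.57 at 2 mM and 1.06 at 11 mM, for Slc25a10 1.16 and 0.68, for Pdk1 0.69 and 0.34, for Pdk2 0.97 and 1.42, and for Idh1 -1.23 and -0.92. The calls of Pdhb, Slc25a10 and Pdk1 were kept without any single library, while those of Pdk2 and Idh1 were not. Of the other pathway genes, the same test called Slc16a1 (-1.17), Gpd1 (-0.55) and Me3 (-0.55), whose rises with ChREBPβ at 2 and 11 mM were 2.55 and 1.38, 2.43 and 1.88, and 1.2 and 0.65.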

How the results depend on the processing

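No member changed direction where it was called. The counts of called members at 2 mM, 11 mM, with glucose in GFP cells, with glucose in ChREBPβ cells and in the interaction were 21, 12, 8, 0 and 5. With the replicate letter as a replicate block they were 21, 12, 9, 0 and 5, where 44%, 33.1%, 20%, 3.73% and 6.22% of all tested genes were called. Same-letter libraries of different groups did not deviate together (r between -0.11 and 0.06 over 18 pairs), so the letters were not taken as pairs. Without a minimum fold change they were 27, 22, 19, 4 and 6, where 58.7%, 49.7%, 34.3%, 7.5% and 8.07% of all tested genes were called. With a minimum of 2-fold they were 5, 3, 0, 0 and 0, where the shares over all tested genes were 9.93%, 6.76%, 2%, 0.191% and 0.736%. Leaving out each library in turn gave 19 to 21, 12 to 13, 7 to 12, 0 to 1 and 4 to 6. The shares over all tested genes in these fits were 41.3% to 44.1%, 30.8% to 33.4%, 17.8% to 20.1%, 2.64% to 4.06% and 4.51% to 7.24%. Scaled to library totals only, they were 15, 10, 7, 0 and 5, where 45.1%, 35.7%, 20.2%, 4.18% and 6.01% of all tested genes were called. The share of members called in either direction was then no higher than that over all genes at 2 mM and at 11 mM. With this scaling the median of all genes moved by -0.099 at 2 mM and -0.084 at 11 mM. Over all genes, the share of calls that were higher went from 47.5% to 33.2% and from 42.9% to 29.3%. The members called with this scaling were 12 higher and 3 lower at 2 mM and 6 higher and 4 lower at 11 mM. Upper quartile factors gave 17, 12, 6, 0 and 5, beside 44.3%, 33.9%, 20.2%, 3.82% and 5.99% of all tested genes. The members whose calls changed under these scalings had changes near 1.2-fold, such as Idh2, Idh3b, Fh and Pdha1 at 2 mM. DESeq2, RLE factors, the likelihood ratio test and both other filters moved no count by more than 1. Precision was lowest for Slc25a22, with 40 to 134 counts.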
